A study of Mus musculus with 2 samples.

Results

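The Fam172a locus was taken as the gene Fam172a on chromosome 13 with 100 kb on either side (chr13:77608677-78266240, mm10, 658 kb), and its members are the H4K12la peaks that touch it. There were 46 such peaks among the 86360 of both libraries, 31 in the control list and 15 in the lactate list. H4K12la is histone H4 with a lactyl group on lysine 12, mapped here by CUT&Tag, in which an antibody guides a transposase to the mark so that the DNA beside it is tagged for sequencing. The cells were Neuro2a, an established mouse neuroblastoma line, given NaCl in the control library and 25 mM lactate in the other, with 1 library per group. How long the cells were treated is not given in the sources used here. With no replicate in either group, each difference is between these 2 libraries, no test between them was possible, and every interval covers counting error only.

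Histone lactylation is the attachment of a lactyl group, derived from lactate, to lysines of histones, and it has been described at promoters and enhancers of active genes. Fam172a, named in the study's title as a mediator of histone lactylation in POMC neurons, encodes a protein that has been described in the nucleus as a partner of the chromatin remodeller CHD7 and of Argonaute proteins in splicing during transcription. The files hold where the mark was called on the gene, not how much of its RNA or protein the cells made.

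Fam172a spans 458 kb (chr13:77708677-78166240) and is transcribed toward higher coordinates. Sequence is shown for the 2 protein-coding gene starts of the locus that lay under a called peak, 1 in each library. Both run from 250 bases before the transcript start to 30 bases after it, 5′ to 3′ on the plus strand, from the RefSeq promoter table (build GRCm38.p6, which is mm10 with patches). Capitals mark the bases under the peak. The first is Fam172a at chr13:77708440-77708719, where the peak belongs to the lactate library, and the second is Pou5f2 at chr13:78024652-78024931, where it belongs to the control. Pou5f2, a POU-domain factor gene known from the male germ line, lies wholly within the span of Fam172a.
Fam172a: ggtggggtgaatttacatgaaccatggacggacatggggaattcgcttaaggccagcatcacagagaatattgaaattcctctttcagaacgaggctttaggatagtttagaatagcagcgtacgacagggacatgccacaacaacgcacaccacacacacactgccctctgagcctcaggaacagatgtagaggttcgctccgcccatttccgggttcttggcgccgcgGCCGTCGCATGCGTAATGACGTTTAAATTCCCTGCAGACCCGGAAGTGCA
Pou5f2: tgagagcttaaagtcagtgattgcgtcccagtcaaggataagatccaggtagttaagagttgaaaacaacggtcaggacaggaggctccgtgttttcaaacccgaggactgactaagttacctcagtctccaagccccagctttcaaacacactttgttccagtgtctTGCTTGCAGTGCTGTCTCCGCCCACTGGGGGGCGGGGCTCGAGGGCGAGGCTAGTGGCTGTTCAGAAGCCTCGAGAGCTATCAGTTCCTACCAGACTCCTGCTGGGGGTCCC
The lactate peak covers the last 50 of the 280 bases shown for Fam172a, and the control peak covers the last 112 of the 280 shown for Pou5f2.

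The 300-base promoter of Fam172a in that table, which runs 20 bases past the stretch shown, holds 20 CG dinucleotides, where the median of 32851 RefSeq promoters is 7 and 73.5% hold fewer. Of 6 motifs searched on both strands, it holds CCGGAAG, the core recognised by ETS factors, at bases 19 to 25 after the transcript start, within the capitals. That motif occurs in 8.86% of the promoters. It also holds the GC box GGGCGG, on the other strand as CCGCCC, at bases 49 to 44 before the start and outside the peak; 35.7% of promoters hold a GC box. The letters of the E-box CACGTG (7.15% of promoters), ACGTG of the hypoxia response element, which lies within that E-box (19.6%), the palindromic NRF1 motif (0.971%) and CCAAT (37.4%) are not in this window. The Pou5f2 promoter holds 11 CG dinucleotides and 2 GC boxes, 1 on each strand, both under the control peak.

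The start of Fam172a carried a peak in cells given lactate and none in cells given NaCl. The lactate peak (chr13:77708670-77708869, 200 bp) had a summit pileup of 16 overlapping reads (exact Poisson 95% interval 9.15 to 26.0), and its summit lay 61 bases past the transcript start. Pileup means the number of extended reads stacked at the highest point. The authors' fold enrichment over the local background was 4.19 and their −log10 q was 4.38. The control had no call within 20 kb of this peak: its nearest lay 20.1 kb below, and the next inside the gene 28.3 kb above. No peak in either library lay within 1 kb of the upper end of the gene. At the genome-wide background of the control, 2.96 reads, the lowest pileup that could be called was 11 reads, so the start of Fam172a may hold signal in the control below about that level, or below a higher one if the local background there was above the floor, without a call.

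Of 21887 protein-coding genes, 6266 (28.6%) had a peak within 1 kb of either annotated end in both lists, 3537 (16.2%) only with lactate, as Fam172a did, and 730 (3.34%) only with NaCl. Counted by transcript starts in the RefSeq promoter table, 2860 of 17492 genes (16.4%) had one only with lactate, Fam172a among them. Among the 3537 genes, the fold at Fam172a was above that of 82.3%, whose median was 3.45, while its 16 summit reads were above those of 23.4%, whose median was 19. The fold stood high and the reads low with a local background there at the genome-wide floor of that library, 3.06 reads. A −log10 q of 5 was reached by 930 of the 3537 genes and was not reached by Fam172a. Where peaks of both lists overlapped at gene ends, 5823 pairs in all, the lactate summit was higher in 94.0%. The control summit was higher in 4.33% of these pairs, and the median lactate to control ratio was 1.55.

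**Figure D1:**
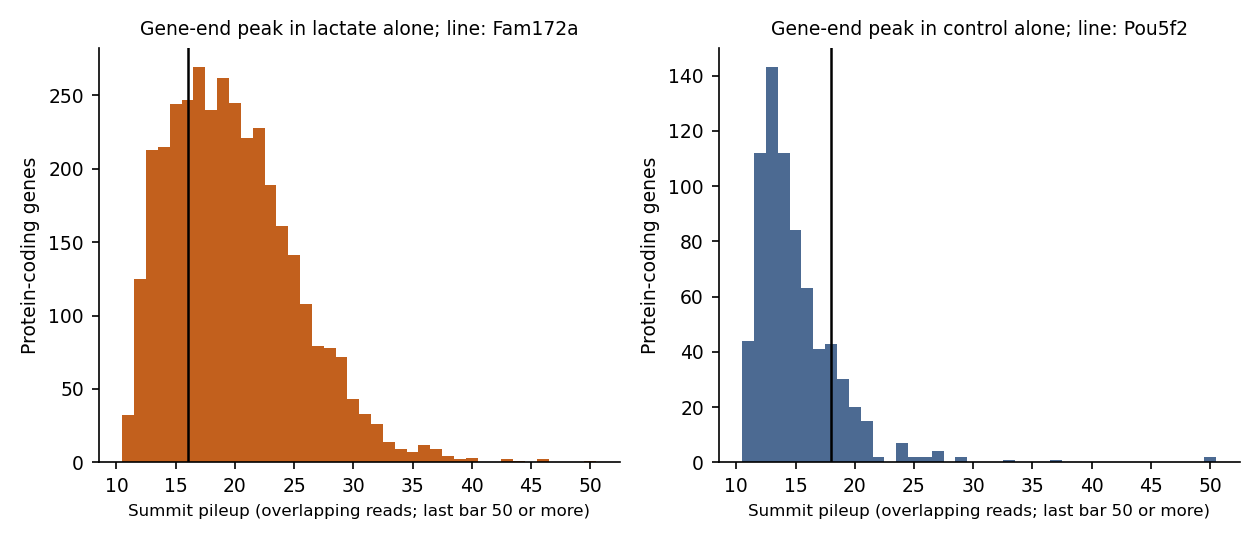
Summit pileup (overlapping reads, horizontal axis) of the highest-fold gene-end peak for the 3537 protein-coding genes called at an end only with lactate (left) and the 730 called only with NaCl (right), with the number of genes on the vertical axis. The black lines mark Fam172a at 16 reads, left of its group's median of 19, and Pou5f2 at 18 reads, right of its group's median of 14.

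At Pou5f2 the calls were the other way round. The control peak (chr13:78024820-78025451) spanned 632 bp, the widest interval of the locus, and had 18 summit reads (10.7 to 28.4). Its summit lay 9 bases past the annotated start of Pou5f2. The fold was 3.08 over a local background of 5.16 reads and the −log10 q was 2.68. The nearest lactate peak was 42.2 kb away. Of the 730 genes called at an end only with NaCl, 82.1% had fewer summit reads and 30.8% a lower fold. Because Pou5f2 lies within Fam172a, this interval counts both as a gene-end peak of Pou5f2 and as a peak inside Fam172a.

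Inside the gene the control list held more peaks than the lactate list. Between its ends Fam172a held 24 control peaks (15.4 to 35.7) and 9 lactate peaks (4.12 to 17.1), and the peak across the start made 10 in the lactate library. The control peaks covered 5730 bp and the lactate peaks, the start included, 2631 bp. Along the gene, in 5 equal parts from the start, the control list had 1, 3, 6, 6 and 8 summits and the lactate list 1, 2, 2, 2 and 3. Both lists were thus thinnest in the first part, where the longest peak-free stretches of the locus also began. With NaCl the stretch was 101 kb long and followed a peak 28.7 kb into the gene. With lactate it was 123 kb long and followed the peak at the start.

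**Figure D2:**
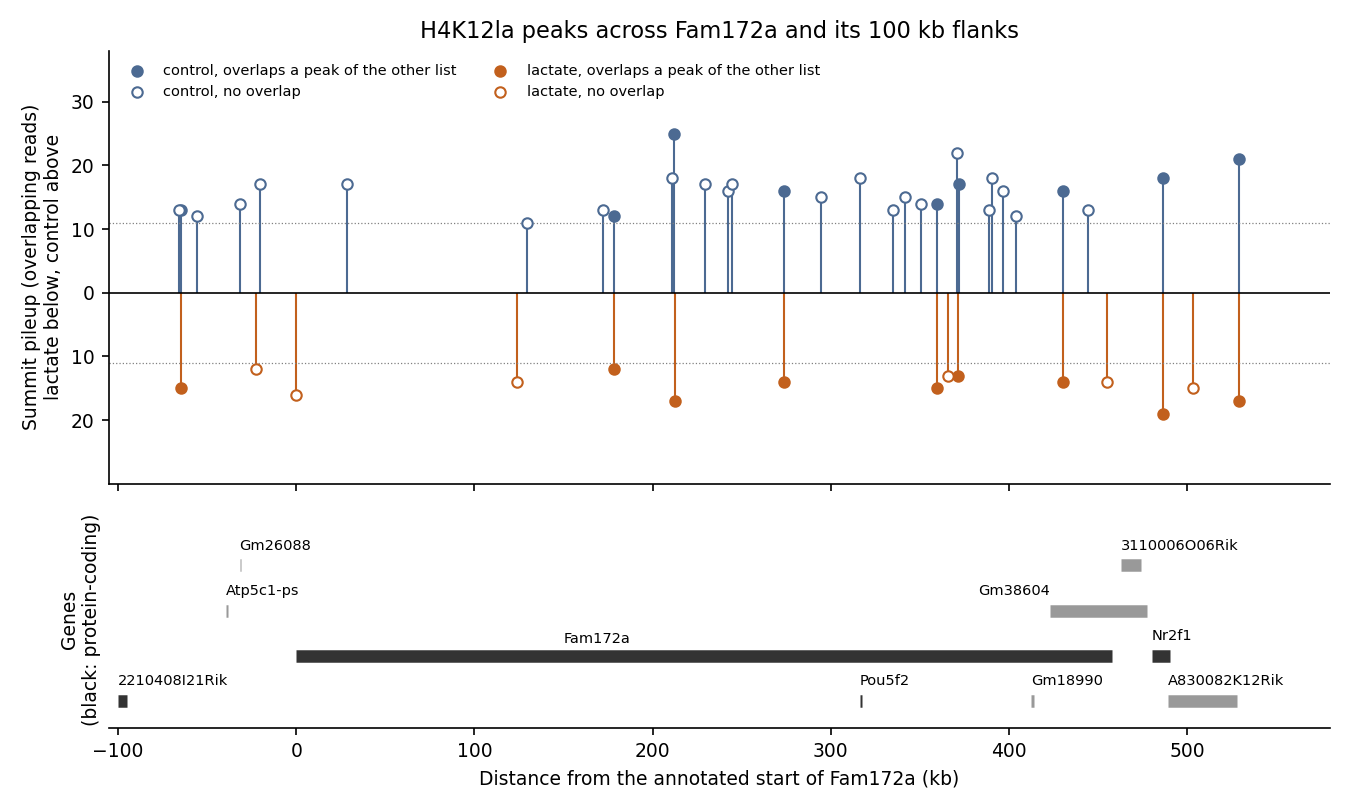
Each stem is a called peak at the distance of its summit from the annotated start of Fam172a (kb), with its summit pileup in overlapping reads upward for the control and downward for the lactate library; dotted lines mark 11 reads, the lowest pileup callable at the genome-wide background. Filled heads mark the 9 peaks of each list that overlap a peak of the other, and the bars below show annotated genes, protein-coding ones in black; control stems crowd the upper part of the gene, while a lactate stem of 16 reads stands alone at its start.

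Control summits in the locus were near the level of their whole list and lactate summits below that of theirs. Control summits ran from 11 to 25 reads with a median of 16, and lactate summits from 12 to 19 reads with a median of 14, where the medians of all peaks were 15 and 18 reads. The highest summit of the locus was in the control at chr13:77920789-77921125, 212 kb into the gene, with 25 reads (16.2 to 36.9), a fold of 4.22 and a −log10 q of 6.44. Next came the control peak at chr13:78079537-78079731, 371 kb into the gene, with 22 reads (13.8 to 33.3) and a −log10 q of 5.53. These 2 were the only peaks of either list in the locus to reach a −log10 q of 5, which 13.2% of all control peaks and 24.7% of all lactate peaks reached. The third in the control, with 21 reads (13.0 to 32.1), lay beyond the gene at chr13:78237435-78237827. In the lactate list the highest summits were 19 reads (11.4 to 29.7) within Nr2f1 and 17 reads (9.90 to 27.2) at each of 2 shared sites, 1 in Fam172a and 1 beyond Nr2f1. The peak at the Fam172a start followed with 16 reads and had the second highest −log10 q of the lactate list here, after 4.56 at the shared site 212 kb into the gene.

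Overlap between the libraries was counted from 1 bp. In the locus 9 of 31 control peaks had a lactate partner, or 29.0% (exact Clopper-Pearson 95% interval 14.2% to 48.0%), where 37.7% of all control peaks did. Of the 15 lactate peaks 9 had a control partner, or 60.0% (32.3% to 83.7%), where 43.4% of all lactate peaks did. Both intervals include the share over all peaks. Peaks inside protein-coding genes and away from their ends give a nearer background: 38.3% of such control peaks and 37.7% of such lactate peaks had a partner. In the locus 7 of 24 control and 7 of 10 lactate peaks of that kind did, 1 of each within Nr2f1 and the rest within Fam172a.

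The 9 shared sites were spread over the locus, 6 of them within Fam172a. From the start of the gene upward these 6 lay 178, 212, 274, 359, 372 and 430 kb in. At 178 kb (control chr13:77886643-77886782) both libraries had 12 summit reads (6.20 to 21.0), with summits 9 bp apart. At 212 kb there were 25 control reads and 17 lactate reads (9.90 to 27.2) over 337 shared bases, the largest difference of the 9. Fold at this site was nearly equal, 4.22 against 4.15, over local backgrounds of 5.16 control and 3.34 lactate reads. At 274 kb there were 16 and 14 reads, but the intervals met by 8 bp and the summits lay 207 bp apart, so this pair is shared by the 1 bp rule more than by position. At 359 kb (control chr13:78067813-78068191) there were 14 control and 15 lactate reads with summits 8 bp apart. At 372 kb the counts were 17 and 13, with summits 259 bp apart. At 430 kb, where the lncRNA gene Gm38604 overlaps Fam172a, they were 16 and 14, with summits 39 bp apart.

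The remaining 3 shared sites lay in the flanks. Below the gene, at 64.9 kb from its start, there were 13 control and 15 lactate reads. Within Nr2f1, which encodes the orphan nuclear receptor COUP-TFI, a regulator of neural development, the counts were 18 and 19. Beyond it, 871 bp past the upper annotated end of the lncRNA gene A830082K12Rik, they were 21 and 17. The 95% intervals of the 2 libraries overlapped at all 9 sites. Overlap of separate intervals is not a test of a difference, and none was run. The control was higher at 5 sites, the lactate library at 3, and 1 was equal. Over 6146 pairs inside protein-coding genes away from their ends, the lactate library was higher in 68.8% and the control in 24.6%, with a median lactate to control ratio of 1.18. Not all 9 pairs of the locus are of that kind. Over all 17922 pairs the lactate library was higher in 70.3% and the control in 25.0%, with a median ratio of 1.25. The median ratio of the 9 pairs was 0.875. With 9 pairs and 1 library per group this difference was not tested.

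**Figure D3:**
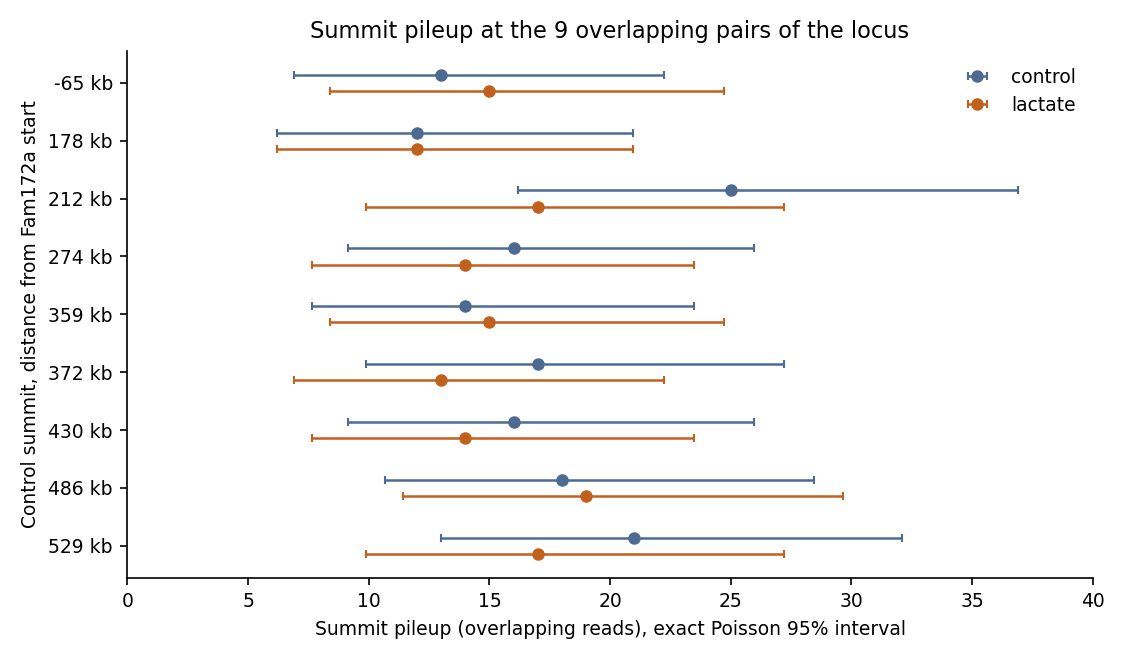
Summit pileup in overlapping reads (horizontal axis) with exact Poisson 95% intervals at the 9 sites of the locus called in both libraries, ordered by the distance of the control summit from the Fam172a start. Control and lactate intervals overlap at every site, and the widest separation is 25 against 17 reads at 212 kb.

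Without a partner stood 22 control peaks and 6 lactate peaks. The 22 control peaks had 11 to 22 summit reads with a median of 15, where the 29028 control peaks without a partner had a median of 14. Of these 22, 10 stood within 3 reads of 11, the lowest pileup callable at the genome-wide background. The lowest callable pileup was higher wherever the local background exceeded that level, so this count is only a rough guide. The same share over all peaks without a partner was not counted. The median distance from such a control peak to the nearest lactate peak was 16.8 kb, so most were not near misses of the overlap rule. Exceptions lay 415 bp, 667 bp and 932 bp from a lactate peak, the first being the 22-read peak at 371 kb. The highest of the others were 18 reads at 391 kb (chr13:78099285-78099499, fold 4.38, −log10 q 4.99) and the Pou5f2 peak. A peak 28.7 kb into the gene, at chr13:77737170-77737432, had the highest fold of any peak in the locus, 4.55 with 17 reads (9.90 to 27.2) and the same −log10 q of 4.99.

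The 6 lactate peaks without a partner had 12 to 16 reads. Besides the one at the start of Fam172a they lay 22.6 kb below it (12 reads), and 124 kb (14 reads), 366 kb (13 reads) and 455 kb (14 reads) into the gene, with 1 more within A830082K12Rik (15 reads). The site at 455 kb (chr13:78163128-78163550, 423 bp) is the last of the gene and lies within 3 kb of its upper end. Of the 6, 4 stood within 3 reads of that lowest pileup. Thus the start of Fam172a carried the highest pileup among the lactate peaks of the locus that had no control partner, at 16 reads beside 15 in A830082K12Rik, a gap well within counting error.

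Local background moved with these counts. It was at its genome-wide floor at 5 of 31 control peaks (16.1%) and at 8 of 15 lactate peaks (53.3%), while over all peaks the shares were 34.9% and 21.5%. At the peaks of the locus the median local background was 3.80 control reads and 3.06 lactate reads, where the medians over all peaks were 3.32 and 4.38. Reads around the peaks of the locus were thus denser with NaCl and sparser with lactate than at a typical peak of the same list. The part of this in the peak counts was not tested.

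The balance of the counts was set beside all windows of the same length. Chromosomes 1 to 19 and X gave 3965 such windows without overlap, with medians of 9 control and 7 lactate peaks. Windows with no peak in either list, such as those that open chromosomes 1 and 3, were kept among them. The 31 control peaks of the locus exceeded the count in 95.0% of the windows and its 15 lactate peaks the count in 73.9%. More control than lactate peaks were found in 46.2% of the windows, so the direction was common. A difference of at least 16 peaks was found in 374 windows (9.43%). Chromosome 13 held 3096 control and 2258 lactate peaks, a ratio of 1.37 where that of all chromosomes was 1.17, and on it 30 of 178 windows (16.9%) had such a difference. The ratio in the locus was 2.07.

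**Figure D4:**
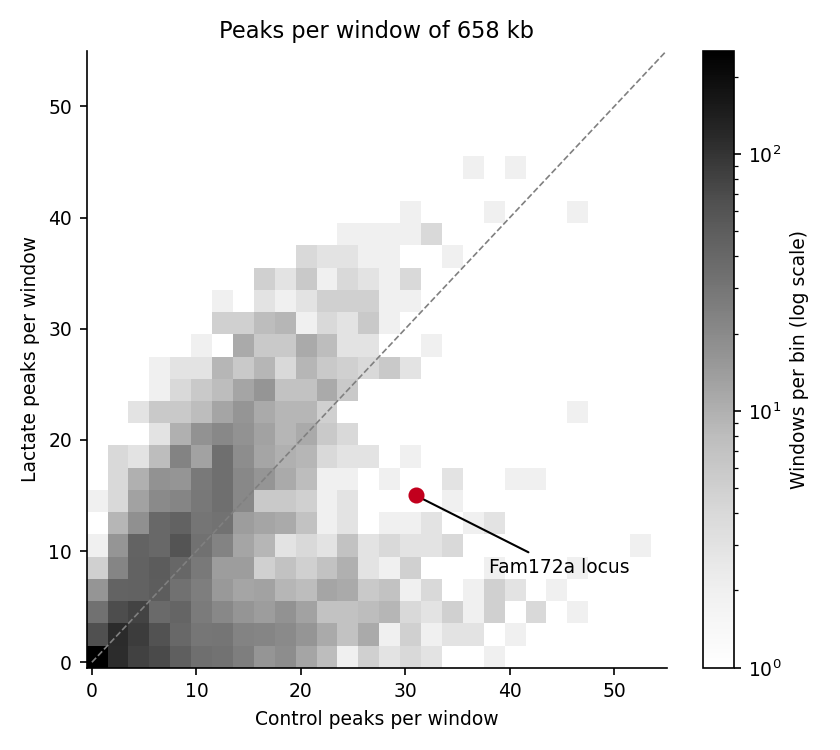
Number of control peaks (horizontal axis) and lactate peaks (vertical axis) in windows of 658 kb on chromosomes 1 to 19 and X, shaded by the number of windows per bin on a log scale, with a dashed line of equal counts; 18 of 3965 windows lie outside the axes. The Fam172a locus (red) sits below the line at 31 control and 15 lactate peaks.

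Set beside other long genes, Fam172a was dense in control peaks. Of 722 protein-coding genes of at least 250 kb, 12 had more control peaks per 100 kb than Fam172a, which had 5.25 where the median was 1.06. In the lactate library it had 2.19 per 100 kb, where the median was 0.687, and 154 genes had more. More control than lactate peaks lay in 330 of these genes (45.7%), and in 208 (28.8%) the control to lactate ratio was at least that of Fam172a. Of the long genes 98 were called at an end only with lactate. Among these 98, the gene held more control than lactate peaks in 26, and the ratio was at least that of Fam172a in 14, Fam172a included. Both ratio counts, 208 and 14, include genes with control peaks and no lactate peak, such as Ncam2 with 3 and 0. Many of these genes held few peaks.

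The 5 genes most like Fam172a among those 98, by peak density in each library and lactate gene-end fold, were Dnah7b, Cntn4, Sipa1l1, Angpt1 and Mad1l1. The measure was the Euclidean distance over these 3 values, each divided by its SD over the 98 genes, and rests on 1 library per group. Dnah7b, an axonemal dynein heavy chain gene, was nearest at a distance of 1.46, with 19 control and 5 lactate peaks over 307 kb and a lactate gene-end peak of 13 reads. It was the only other gene of the 98 with at least as many control peaks per 100 kb, at 6.18. Cntn4, a neuronal adhesion gene, followed at 1.84 with 41 control peaks and 1 lactate peak over 1023 kb. Angpt1, the angiopoietin 1 gene, had 11 control and 4 lactate peaks at a distance of 2.31. Sipa1l1, a Rap GTPase regulator, had 11 and 14, and Mad1l1, of the spindle checkpoint, 11 and 10, at 2.20 and 2.35. Even the nearest gene thus lay at a distance above 1, and Sipa1l1 had the opposite balance of peaks. Unlike Fam172a, Dnah7b and Cntn4 had no lactate peak within 1 kb of a transcript start in the promoter table. Sipa1l1 had peaks of both lists at its starts, Mad1l1 only lactate, and Angpt1 has no start in that table.

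**Figure D5:**
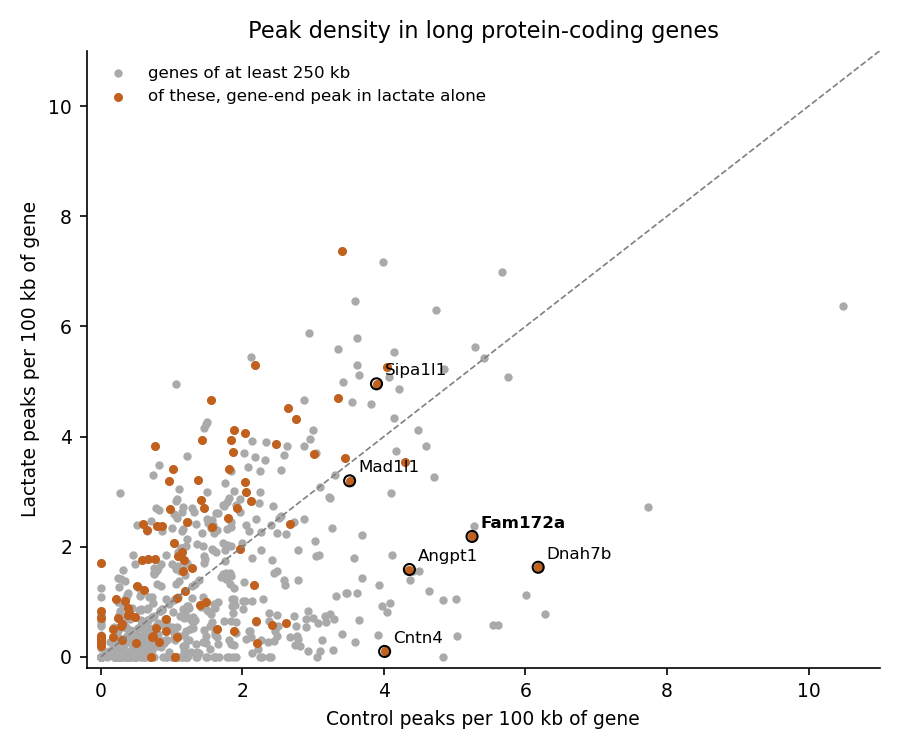
Control (horizontal axis) and lactate (vertical axis) peaks per 100 kb of gene for 722 protein-coding genes of at least 250 kb, in orange where a gene-end peak was called only with lactate, with a dashed line of equal density. Fam172a, at 5.25 control and 2.19 lactate peaks per 100 kb, and the 5 genes nearest to it by the likeness measure are circled.

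The locus touches 10 annotated genes, of which 4 are protein-coding, 3 lncRNA, 2 pseudogenes and 1 a snoRNA. The protein-coding gene 2210408I21Rik reaches 5.11 kb into the lower flank, and no peak of the flank lay in that stretch. Its gene-end peak lay at its far end and was shared with Slf1, a gene of DNA repair, with 13 control reads (6.92 to 22.2) and 23 lactate reads (14.6 to 34.5). The nearer end of Nr2f1 lies 22.7 kb above Fam172a, and the gene carried no peak within 1 kb of its ends. Its shared peak lay inside the gene, and the control interval touched the 1 kb window of a transcript start of Nr2f1 at its last bases while the lactate interval did not. The snoRNA gene Gm26088 had a control peak of 14 reads within 1 kb and no lactate peak. Of the pseudogenes Atp5c1-ps and Gm18990 and the lncRNA gene 3110006O06Rik, none carried a peak at an end.

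Beyond the flanks the neighbours are distant. Mctp1 and Fam81b below, and the long adhesion receptor gene Adgrv1 above, carried none at their ends. Arrdc3, an arrestin domain gene whose nearer end lies 2717 kb above Fam172a, was called in both lists, with 21 control reads (13.0 to 32.1) and 34 lactate reads (23.5 to 47.5). Lysmd3 was also called in both, with 25 and 31 reads. A gene-end peak in 1 list only was therefore found at Fam172a and Pou5f2 and at none of the other 8 of the 10 protein-coding genes examined around them. Over all protein-coding genes 16.2% had one only with lactate and 3.34% only with NaCl. With 10 genes, this count is not set apart from the general rate.

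Genes of the described partners were called in part. Of 11 genes for CHD7, Argonaute proteins and the small RNA pathway they belong to, 5 had a gene-end peak in both lists, 3 only with lactate, 3 in neither list and none only with NaCl. Over all 21887 protein-coding genes the shares were 28.6% in both, 16.2% only with lactate and 3.34% only with NaCl. The other 11354 genes had a gene-end peak in neither list. With 11 genes the partner list is too short to be set apart from these. Chd7, the chromatin remodeller, was called only with lactate, at 18 reads (10.7 to 28.4), as were Ago1 with 17 (9.90 to 27.2) and Ago2 with 27 (17.8 to 39.3). None of these 3 reached a −log10 q of 5, their values being 4.01, 3.31 and 2.77. Ago3 and Ago4 had no peak within 1 kb of an annotated end, though Ago3 had a lactate peak within 1 kb of a transcript start and 2 lactate peaks inside the gene. Tnrc6a, also counted in neither list, had a peak of each library within 1 kb of its transcript start. Counted over the whole gene, Chd7 had 3 control and 4 lactate peaks, Ago2 had 4 and 3, and Ago1 had 0 and 2. Fam172a had 24 and 10 by that count.

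Over each whole list there were 46592 control and 39768 lactate peaks. The solved genome-wide background was 3.43% higher in the lactate library, which measures relative depth only if both libraries were called with the same settings. As a check of the labelled cell type, 7 of 11 neuroblastoma and neuron markers had a gene-end peak with lactate and 4 with NaCl, among them Syt1, Map2 and Stmn2 in both, while Th, Dbh and Gata3 had none in either. Of 10 markers of other cell types, 1 was called with lactate and none with NaCl. Over all protein-coding genes 44.8% were called with lactate and 32.0% with NaCl, so the neuronal count with NaCl is near the general rate, and these short lists tell little of the cell type.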

How the data were processed

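CUT&Tag for H4K12la gave 1 peak list per library, called separately in each. The submitters' processing notes name the tools BWA, deepTools and MACS2 and the build mm10. Versions, calling settings and any input or spike-in: not given in the sources used here. Each deposited list holds, per peak, a fold enrichment (a ratio of summit pileup to local background within that library), −log10 p, −log10 q, a score of 10 times the −log10 q, and the summit offset; these are the authors' values, relative to each library's own surroundings. The lowest deposited −log10 q was 1.30 in both lists, a q threshold of 0.05.

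The 6 mitochondrial peaks of each list were left out. MACS2's fold, (pileup + 1)/(background + 1), and its Poisson p were solved for a whole-number pileup, which matched the deposited −log10 p to 0.001 at 46591 of 46592 control peaks and at all 39768 lactate peaks. This was checked on simulated data. Relative depth comes from the solved genome-wide backgrounds, which takes the calling settings to be the same in both libraries. Genes are from a RefSeq table of GRCm38.p6, without exons, so whether a peak is exonic or intronic was not analysed here; transcript starts are those of the RefSeq promoter table, 1 of them for Fam172a. A gene-end peak touches 1 kb on either side of an annotated end. Windows were laid end to end from the first gene or peak of each chromosome.

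Named were all genes of the locus, 3 protein-coding genes beyond each flank, the partner list, and the 5 long genes nearest by the likeness measure, passing over Gm-number and Rik symbols; peaks given singly are those at gene ends, those with a partner and the 3 highest per library, and others named were chosen after their values were seen. One further listed marker is not reported here. Locus, gene lists and tests were chosen with earlier results of these data known. Software: Python 3.11.15, scipy 1.17.1, numpy 2.4.6, pandas 2.3.3, matplotlib 3.10.9.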

Additional observations from a re-analysis of the deposited data

How the results depend on the processing

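With 1 library per group, nothing here has a replicate check, and low summits limit what can be called: a site with under 11 reads at the genome-wide background is not listed. No paired analysis was possible because each group has 1 library and no test was run. Counts of peaks and partners in the locus and of Fam172a gene-end peaks were recomputed under stricter thresholds, lists of equal length, merged peaks, other flanks, other overlap rules and other end windows. Of 38 recomputed values 31 stayed within 1.5 times the reported one. Some of the 31 could not have moved. The control count of 0 at the Fam172a ends cannot rise under a stricter threshold, a shorter list or a narrower end window. The lactate list was the shorter, so its peak counts in the locus and at the Fam172a start were fixed in the lists of equal length. With only peaks of −log10 q 5 or more, the locus kept 2 control and 0 lactate peaks, so that 0 control and 0 lactate peaks had a partner and the lactate call at the Fam172a start fell to 0. A flank of 250 kb raised the control count from 31 to 47, where the lactate count was 21. A gene-end window of 3 kb raised the lactate gene-end peaks of Fam172a from 1 to 2, where the control stayed at 0. The control count exceeded the lactate count in all 7 settings that gave both, the reported one included. With the control list cut to 39768 peaks, the length of the lactate list, they were 27 and 15.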
